A study of Homo sapiens with 4 samples.

Results

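The nuclear genes of oxidative phosphorylation were followed in G401 cells, an established line from a rhabdoid tumor of the kidney, after loss of BRD9. Members were chosen by symbol: every row beginning with NDUFA, NDUFB, NDUFC, NDUFS, NDUFV, UQCR, COX4 to COX8 or ATP5A to ATP5L, and the succinate dehydrogenase genes SDHA to SDHD, with pseudogenes left out. This gave 98 of the 57820 gene models listed. They hold 90 coding symbols, 4 further gene models of a symbol, 2 readthrough transcripts and 2 antisense RNAs. The 90 symbols comprise 83 subunits of complexes I to V and the 7 complex I assembly factors named NDUFAF.

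The series held 2 RNA-seq libraries labeled BRD9 KO and 2 labeled LacZ, the control, in which the target of the edit is a bacterial gene that human cells lack. All 4 came from G401 cells grown in DMEM with serum, and all share the loss of SMARCB1 that marks this tumor: SMARCB1 had 0 counts in each library. BRD9 is a bromodomain subunit of a SWI/SNF chromatin remodeling complex, deleted here with CRISPR-Cas9. The comparison asks which transcripts differ once BRD9 is lost. The day of harvest is not given in the sources used here, and the labels do not say whether the edited cells were a pool or a clone.

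Oxidative phosphorylation takes place in the inner mitochondrial membrane. Complex I (NADH dehydrogenase) and complex II (succinate dehydrogenase) pass electrons through coenzyme Q to complex III (cytochrome bc1), then through cytochrome c to complex IV (cytochrome c oxidase), and complex V (ATP synthase) uses the proton gradient they build. Mitochondrial DNA encodes a small core of subunits, none of them in complex II, and the nucleus encodes the rest, so that both genomes must supply parts of complexes I, III, IV and V. Nuclear respiratory factor 1 (NRF1), the ETS-family factor GABP and YY1 are known regulators of many of the nuclear genes.

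Estimated counts summed to between 15053195 and 19559200 per library after rounding. The BRD9 transcript (ENSG00000028310.13), which checks the labels, measured 29.4 and 26.8 counts-per-million (CPM) in the knockout libraries (replicates 1 and 2, here and below), whereas the LacZ libraries had 48.2 and 53.8. Both knockout libraries lay below both controls. The log2 fold change, -0.86 ± 0.07 (SE, 2 libraries per group), had an edgeR adjusted p of 2.84e-09. Vimentin (VIM), a filament protein of mesenchymal and rhabdoid cells, averaged 1177 transcripts-per-million (TPM) in BRD9 KO and 1648 in LacZ, whereas the markers of blood and endothelial cells PTPRC, CD3E and CDH5 had 0 counts in all 4 libraries. Mitochondrially encoded genes took 8.15% of counts in both knockout libraries and between 8.44% and 8.48% in the controls. Fewer cells of a type and less RNA per cell cannot be told apart in such bulk samples.

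Nuclear oxidative phosphorylation genes were slightly higher in BRD9 KO, and the changes were small apart from UQCRC2, a core subunit of complex III. Of the 90 symbols, 83 passed the filter on low counts. Of these, 28 rose in BRD9 KO (33.7%), against a background of 20.5% of the 15288 genes tested. A further 4 fell (4.82%), against a background of 18.1%, and 51 did not pass the test at an adjusted p under 0.05. The median log2 fold change of the tested members was 0.05, beside -0.01 for all genes tested. Both knockout libraries lay above both controls for 47 members and below both for 11, while over all genes tested the shares were 34.1% and 34.5%. The members moved little: 96.4% stayed under 0.3 on the log2 scale in either direction, against 69.9% of all genes tested. Only UQCRC2, NDUFAF4 and NDUFAF5 exceeded that size. The tested members had a median of 159 TPM, and the background was not matched for level of expression. Calls and sizes of change both depend on that level.

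Summed over the 90 symbols, the members came to 8402 and 8365 CPM in the knockout libraries and 7877 and 7864 CPM in the controls, a ratio of means of 1.07. Without UQCRC2 the ratio was 1.04. The call counts depended on the test. With DESeq2, 15 members rose and 1 fell, beside 13.5% and 10.5% of all genes. Of the 28 rises 12, but none of the 4 falls, were called under every alternative tried. Over all genes limma, a further test on log2(TPM + 1), called 8.77% higher and 7.21% lower. These shares, and 20.5% and 18.1% with edgeR, are the background for the counts by complex and by list below. Without mitochondrially encoded genes the edgeR counts of members stayed at 28 and 4.

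**Figure D1:**
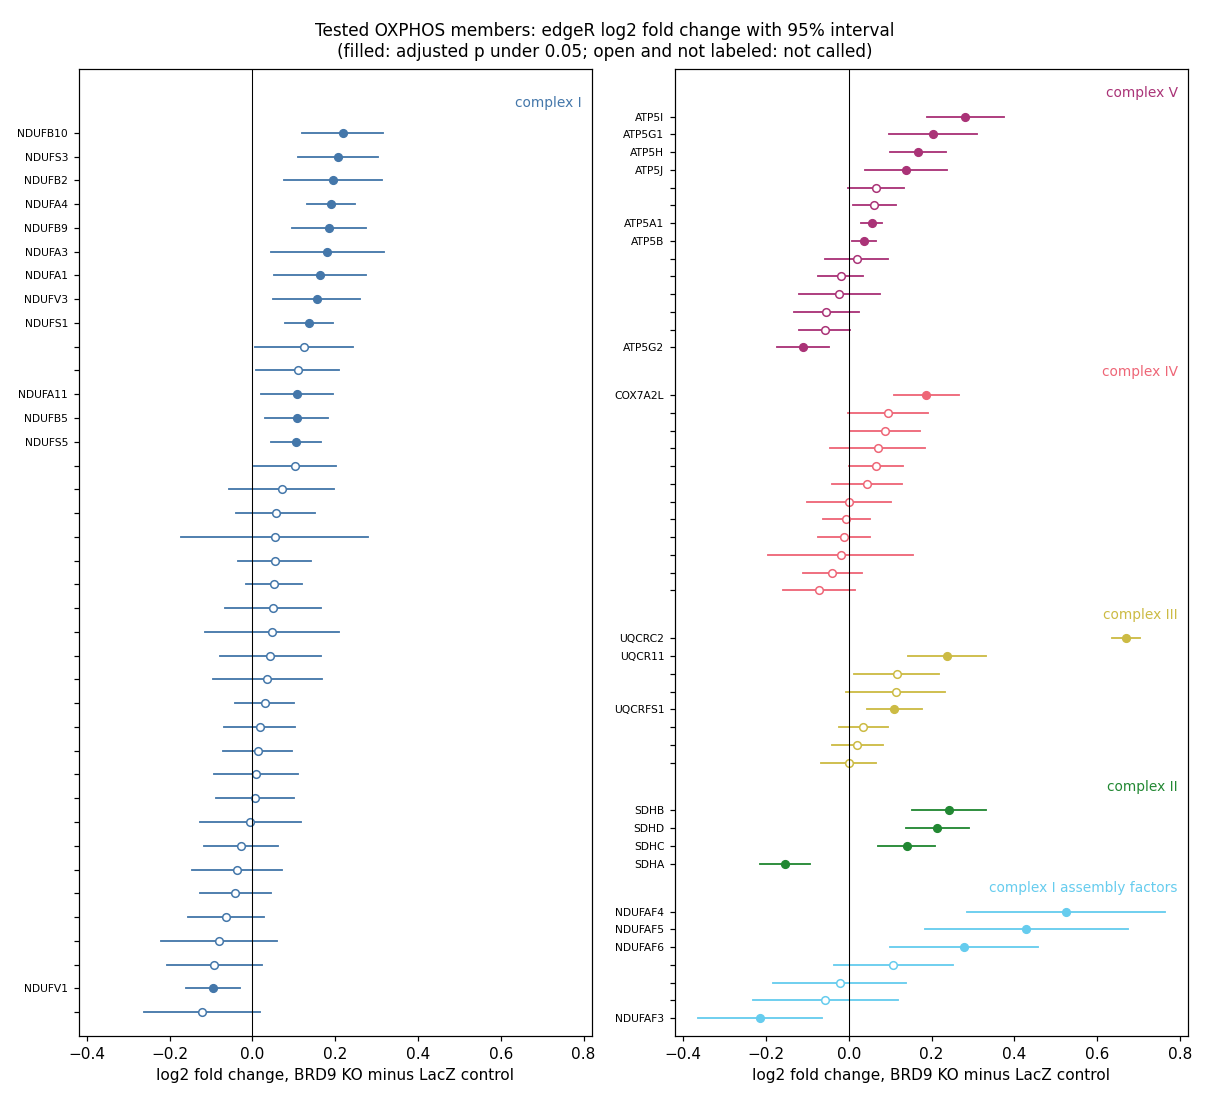
Log2 fold change (BRD9 KO minus LacZ, horizontal axis) of each of the 83 tested members, grouped by complex. Points are edgeR estimates, bars are 95% intervals, and filled, named points passed an adjusted p under 0.05. Most members sit just to the right of 0, and UQCRC2 at 0.67 stands apart from the rest.

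Promoter sequence was searched for the cores of known regulators. RefSeq windows from 250 bases before to 50 bases after a transcription start on GRCh38.p14 were found for 72 of the 90 symbols, 69 of them tested. In these windows 4 short cores were searched on both strands: GCATGCG (NRF1), CCGGAAG (ETS), AAGATGG (YY1) and GGGCGG (SP1). The NRF1 core was present in 19.3% of the 88 member windows and in 3.91% of all 35116 windows. The ETS core was found in 25% and 10.3%, the YY1 core in 20.5% and 5.84%, and the SP1 core in 59.1% and 45.0%. Windows of the protein-coding genes tested here held these cores more often than windows at large, at 5.78% for NRF1, 17.1% for ETS, 7.10% for YY1 and 66.4% for SP1.

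The calls were then counted by core. Among the 21 tested members with an ETS core, 11 rose and 0 fell with edgeR, with a median log2 fold change of 0.12. The 48 without an ETS core included 10 that rose and 4 that fell, with a median of 0.05. Over all genes tested 20.5% rose and 18.1% fell. With DESeq2 the counts were 9 and 0 with an ETS core and 3 and 1 without, beside 13.5% and 10.5% of all genes. For NRF1 the counts were 6 higher and 1 lower of 16 with the core and 15 higher and 3 lower of 53 without it. For YY1 they were 5 and 0 of 17 with the core and 16 and 4 of 52 without it, and for SP1 13 and 2 of 43 with and 8 and 2 of 26 without. These counts describe the letters in each window, and the difference between them was not tested. Calls were not counted for all tested genes that hold a given core, so that the background was not matched for cores. The following 30-base stretches, in the direction of the gene, are a selection from members whose values are given below. They do not show every core found. NDUFAF4, SDHB, SDHD and ATP5I also hold an NRF1 core that is not printed, and ATP5I a YY1 core. Capitals mark the core, written as its reverse complement where it lies on the opposite strand.
NDUFS3, ETS core, chr11:47578961-47578990, plus strand: cggaacctccgCTTCCGGctccacgtccgc
NDUFAF4, ETS core, chr6:96898020-96898049, minus strand: gccacctcccgCCGGAAGcggccctcgtgg
NDUFAF5, NRF1 core, chr20:13785015-13785044, plus strand: gccgcgctggcGCATGCGcacaaaaagcgc
SDHB, ETS core, chr1:17054142-17054171, minus strand: cacccgggaaaCCGGAAGccgcctcccact
SDHB, YY1 core, chr1:17054004-17054033, minus strand: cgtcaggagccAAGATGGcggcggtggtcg
SDHD, ETS core, chr11:112086785-112086814, plus strand: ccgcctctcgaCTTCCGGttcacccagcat
UQCR11, ETS core, chr19:1605561-1605590, minus strand: tccaaccctcgCCGGAAGttactgtaagtg
UQCRC2, YY1 core, chr16:21953358-21953387, plus strand: ggcctccgccaCCATCTTgctttcctttaa
ATP5H, ETS core, chr17:75047052-75047081, minus strand: ccgggaagataCTTCCGGaaccagccctca
ATP5I, ETS core, chr4:674255-674284, minus strand: tgcaggttgtgCTTCCGGtgcggaggtcag
ATP5G2, NRF1 core, chr12:53676105-53676134, minus strand: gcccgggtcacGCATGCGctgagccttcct

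Complex III held the largest change. UQCRC2 encodes core protein 2, which helps anchor the bc1 dimer on the matrix side of the membrane. The gene (ENSG00000140740.6) lies at chr16:21964609-21994981 on the plus strand of GRCh37. Its transcript reached 626 and 617 CPM in the knockout libraries but 389 and 393 CPM in the LacZ libraries. The knockout libraries were far above the controls, and replicates of a group lay close together. The log2 fold change was 0.67 ± 0.02 (SE), with a 95% interval of 0.64 to 0.70 and an edgeR adjusted p of 2.22e-17, and its range over the alternatives was 0.63 to 0.69. Per length of transcript, UQCRC2 was the most abundant complex III member, at a mean of 656 TPM in BRD9 KO and 423 TPM in LacZ. The core shown for it above is YY1.

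The remaining members of complex III changed little. UQCR11, a small subunit of the complex, had 64.2 and 62.5 CPM in BRD9 KO against 54.7 and 52.9 CPM in LacZ. It rose by a log2 fold change of 0.24 ± 0.04 (adjusted p = 0.000266, edgeR). A further gene model of UQCR11, with overlapping exons, had 7.85 and 6.55 CPM in BRD9 KO and 7.10 and 9.72 CPM in LacZ. That model was not called (log2 fold change -0.22), and the posterior standard deviation of its count averaged 18.9% of the count. UQCRFS1 is the Rieske iron-sulfur protein, which carries electrons from ubiquinol to cytochrome c1. It had 113 and 115 CPM in BRD9 KO against 106 and 106 CPM in LacZ, a rise of 0.11 ± 0.03. The call was lost with DESeq2, with limma and without any library but BRD9 KO replicate 1 (edgeR adjusted p from 0.0546 to 0.0742). The partner core protein UQCRC1 stood at 147 and 148 CPM in the knockout libraries and 143 and 148 CPM in the controls, so that the groups touched. The hinge protein UQCRH, next in abundance after UQCRC2, had a log2 fold change of 0.04 (95% interval -0.02 to 0.09). Of the 8 complex III members 3 rose and 0 fell with edgeR, beside 20.5% and 18.1% of all genes. At an unadjusted p under 0.05, or with DESeq2 or limma, 0 of the members were lower. Their summed level went from 1049 and 1058 CPM in LacZ to 1324 and 1306 CPM in BRD9 KO, a ratio of 1.25 that came to 1.05 without UQCRC2. Cytochrome c1 (CYC1), a complex III subunit whose symbol the rule does not take, had 96.3 and 95.6 CPM in BRD9 KO and 90.3 and 91.9 CPM in LacZ, with an edgeR adjusted p of 0.0949.

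Complex II, the only complex built wholly from nuclear genes, had a call for each of its 4 members, and they did not all move in the same direction. SDHB, the iron-sulfur subunit, was at 66.7 and 66.8 CPM in BRD9 KO and 54.9 and 57.8 CPM in LacZ, and its log2 fold change was 0.24 ± 0.04 (edgeR adjusted p = 0.000146). SDHC and SDHD form the membrane anchor that binds ubiquinone. SDHD was at 103 and 109 CPM in BRD9 KO and 91.4 and 91.0 CPM in LacZ, a rise of 0.21 ± 0.04. SDHC, at 127 and 121 CPM against 112 and 114 CPM, rose by 0.14 ± 0.03, a call lost without BRD9 KO replicate 1 (edgeR adjusted p = 0.0513). For all of these, both knockout libraries were above both controls.

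SDHA, the flavoprotein that oxidizes succinate, moved the other way. It was at 137 and 140 CPM in BRD9 KO and 155 and 153 CPM in LacZ, so that both knockout libraries lay below both controls (log2 fold change -0.15 ± 0.03, edgeR adjusted p = 0.000222). SDHA has expressed pseudogenes: SDHAP1 had 385 and 337 estimated counts in BRD9 KO and 288 and 336 in LacZ, and SDHAP3 had 180 and 142 against 102 and 114. When the pseudogene counts were added to SDHA, an alternative chosen after the values were seen, the change was -0.11 (edgeR adjusted p = 0.00288). On log2(TPM + 1) with limma it was -0.10 and did not pass the test (adjusted p = 0.214). SDHA (chr5:218418-257197) and the edited gene BRD9 (chr5:850406-892916, both GRCh37) lie on the same chromosome. Whether the edit itself affects SDHA locally was not tested.

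Complex I, the largest complex, had 12 of its 38 tested genes higher (31.6%) and 1 lower (2.63%), beside 20.5% and 18.1% of all genes. The median log2 fold change was 0.05. Genes were placed by symbol, NDUFA4 among them, and without NDUFA4 the count was 11 of 37 higher. With DESeq2 5 of the 38 rose and 0 fell, a count of rises near the background of 13.5% (10.5% lower). With limma the counts were 7 and 0, beside 8.77% and 7.21% of all genes. The falls stayed at 0 with both tools at an unadjusted p under 0.05. The summed level of its genes was 2630 and 2588 CPM in BRD9 KO and 2485 and 2490 CPM in LacZ. Among the subunits that rose, NDUFB10, an accessory subunit of the membrane arm, had 60.1 and 62.8 CPM in BRD9 KO and 51.3 and 54.0 CPM in LacZ. Its log2 fold change of 0.22 ± 0.05 (adjusted p = 0.000962, edgeR) was called under every alternative. NDUFS3 is a core subunit of the arm that leads electrons to ubiquinone, and had 72.3 and 66.9 CPM in BRD9 KO and 62.3 and 58.8 CPM in LacZ, a rise of 0.21 ± 0.05. That call was lost with limma and without LacZ replicate 2 (edgeR adjusted p = 0.0648). NDUFS1, the largest subunit and a holder of iron-sulfur clusters, had 256 and 244 CPM against 223 and 233 CPM, a rise of 0.14 ± 0.03 that was not called with limma (adjusted p = 0.611). NDUFB9, of the membrane arm, had 76.5 and 83.2 CPM against 69.2 and 70.9 CPM, a rise of 0.18 ± 0.04 kept under every alternative. NDUFB2, NDUFA3, NDUFA1, NDUFV3, NDUFB5, NDUFA11 and NDUFS5 rose by between 0.10 and 0.19, each with both knockout libraries above both controls and each lost under at least 1 alternative. NDUFS5 and NDUFB2 did not pass without LacZ replicate 2 (edgeR adjusted p = 0.055 and 0.139), nor NDUFB2 without BRD9 KO replicate 2 (0.0618).

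NDUFA4 had the smallest adjusted p among the genes with a complex I name. Its protein was named as a complex I subunit but is known to sit in complex IV, where its call would make 2 of 13 members higher. It had 184 and 179 CPM in BRD9 KO and 157 and 162 CPM in LacZ, a rise of 0.19 ± 0.03 on the log2 scale (edgeR adjusted p = 1.65e-05). Its relative NDUFA4L2 had at most 0.0663 CPM in any library and was not tested. The subunit NDUFS5 was the most abundant complex I gene per length, at a mean of 510 TPM in BRD9 KO and 472 TPM in LacZ.

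NDUFV1, the flavoprotein that binds NADH, was the complex I gene called lower. It had 121 and 118 CPM in BRD9 KO and 128 and 128 CPM in LacZ, a log2 fold change of -0.10 ± 0.03 (adjusted p = 0.0188, edgeR), and 6 of the 14 alternatives lost the call, among them each fit without BRD9 KO replicate 2 (adjusted p = 0.136), LacZ replicate 1 (0.0854) or LacZ replicate 2 (0.0954). The core subunits NDUFV2, NDUFS7 and NDUFS8 did not pass the test, with log2 fold changes from -0.09 to 0.02. A further gene model of NDUFA7 had a log2 fold change of -1.39, at 1.80 and 1.65 CPM in BRD9 KO and 3.91 and 5.16 CPM in LacZ. It shares exons with the NDUFA7 model used here, CD320 and RPS28, and the posterior standard deviation of its count averaged 63.3% of the count. The main NDUFA7 model had overlapping groups.

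The NDUFAF genes, which help to assemble complex I and are no part of the finished enzyme, were among the least abundant members tested, with means of 22.2 to 65.2 TPM. They also held the largest changes after UQCRC2. NDUFAF4, a factor of the membrane arm assembly, had 16.0 and 14.1 CPM in BRD9 KO and 9.29 and 11.6 CPM in LacZ. The groups did not overlap, and the log2 fold change was 0.52 ± 0.11 (edgeR adjusted p = 0.00106), called under every alternative. NDUFAF5 modifies the core subunit NDUFS7, and had 11.1 and 12.2 CPM in BRD9 KO and 9.22 and 8.10 CPM in LacZ. Its rise of 0.43 ± 0.12 and that of NDUFAF6, at 0.28 ± 0.09, were lost with DESeq2 and with limma. Without LacZ replicate 2 the edgeR adjusted p was 0.109 for NDUFAF5 and 0.0889 for NDUFAF6, and it also exceeded 0.05 for NDUFAF5 without BRD9 KO replicate 2 (0.0572) and for NDUFAF6 without BRD9 KO replicate 1 (0.0636). NDUFAF3, which acts early in assembly together with NDUFAF4, was lower, at 29.3 and 26.3 CPM in BRD9 KO and 34.0 and 30.9 CPM in LacZ (log2 fold change -0.21 ± 0.07, edgeR adjusted p = 0.0227), and this call too was lost with both tools, without BRD9 KO replicate 2 (adjusted p = 0.201) and without LacZ replicate 1 (0.231).

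Complex IV changed least of the complexes by the share of members under 0.1 on the log2 scale. Of its 12 tested members 1 rose and 0 fell with edgeR, beside 20.5% and 18.1% of all genes. At an unadjusted p under 0.05, and with DESeq2 or limma, 0 fell as well. The median log2 fold change was 0.02, and 11 of the 12 stayed under 0.1 in either direction. The member that rose, COX7A2L, is known as a factor that joins complexes III and IV into supercomplexes rather than as a catalytic part of the oxidase. It had 95.5 and 92.5 CPM in BRD9 KO and 84.1 and 81.2 CPM in LacZ, a log2 fold change of 0.19 ± 0.04 (adjusted p = 0.000439, edgeR). COX7C, the most abundant member of all per length of transcript at 877 TPM in BRD9 KO and 876 TPM in LacZ, had 161 and 162 CPM in the knockout libraries and 163 and 161 CPM in the controls. The 95% interval of its log2 fold change was -0.06 to 0.05. The regulatory subunit COX4I1 had 143 and 150 CPM against 148 and 148 CPM, with an interval of -0.08 to 0.05.

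The isoforms of complex IV that other tissues use were nearly or wholly undetected. COX4I2, the isoform of lung and of low oxygen, and COX7B2 had 0 counts in all 4 libraries, which allows up to 0.199 CPM in the shallowest library for counting error only. The muscle isoforms COX6A2 and COX7A1 and the testis isoform COX8C had at most 0.184 CPM in any library, while their common partners COX6A1, COX7A2 and COX8A had between 66.5 and 97.5 CPM. COX6B2, known as a testis form, was the exception, with 28.1 and 24.98 CPM in BRD9 KO and 24.7 and 29.1 CPM in LacZ. It overlapped between the groups, and its mean of 34.4 TPM compared with 215 TPM for the common form COX6B1. ATP5L2, a near copy of ATP5L, had at most 0.0612 CPM and was not tested.

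**Figure D2:**
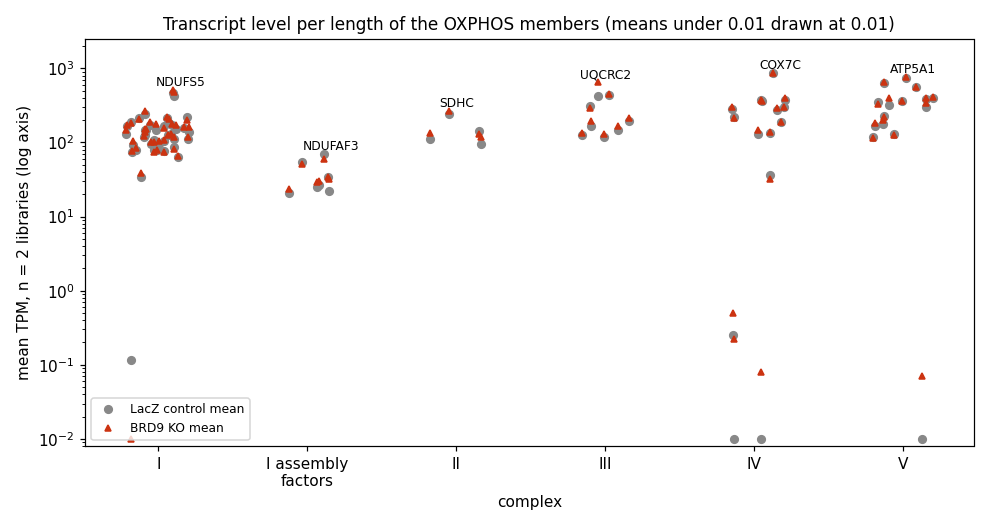
Mean TPM of each member symbol in LacZ (circles) and BRD9 KO (triangles), each over 2 libraries (log axis), by complex, with the most abundant member named. COX4I2 and COX7B2, at 0 in every library, are not shown and means under 0.01 are drawn at 0.01. The assembly factors lie between 20.8 and 70.6 TPM, below most subunits, and the members that were not tested lie below 1 TPM.

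In complex V, 6 of 14 tested members rose and 1 fell with edgeR, beside 20.5% and 18.1% of all genes. The median log2 fold change was 0.05. With DESeq2 and with limma 3 rose and 0 fell, and 1 was lower at an unadjusted p under 0.05. ATP5I, the e subunit of the membrane sector, had 69.6 and 67.8 CPM in BRD9 KO and 54.5 and 58.4 CPM in LacZ. Both knockout libraries lay above both controls, with a log2 fold change of 0.28 ± 0.04 (adjusted p = 3.88e-05, edgeR), the largest in this complex. ATP5H, the d subunit of the stalk, had 117 and 119 CPM against 104 and 106 CPM, a rise of 0.17 ± 0.03. The catalytic head changed less: its alpha subunit ATP5A1 had 846 and 847 CPM in BRD9 KO and 813 and 816 CPM in LacZ, a log2 fold change of 0.06 ± 0.01 that passed the test under every alternative. The beta subunit ATP5B rose by 0.04 ± 0.01, a call that 7 of the 14 alternatives lost, among them DESeq2, limma and each library left out (edgeR adjusted p from 0.084 to 0.258).

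The genes ATP5G1, ATP5G2 and ATP5G3 encode the same mature c subunit of the rotating ring with different import signals, and they differed in direction. ATP5G1 had 52.2 and 49.5 CPM in BRD9 KO and 43.7 and 44.8 CPM in LacZ, a rise of 0.20 ± 0.05 (edgeR adjusted p = 0.00342). ATP5G2 had 122 and 121 CPM against 131 and 132 CPM, a fall with a log2 fold change of -0.11 ± 0.03 (adjusted p = 0.00619, edgeR). ATP5G3, at 174 and 174 CPM against 176 and 177 CPM, did not pass the test (log2 fold change -0.02, 95% interval -0.07 to 0.04). The rise of ATP5G1 and the fall of ATP5G2 were both lost with DESeq2, where ATP5G2 had an adjusted p of 0.121, and with limma (adjusted p = 0.0659 and 0.0591). With edgeR the rise did not pass without BRD9 KO replicate 1 (adjusted p = 0.0548), nor the fall without LacZ replicate 2 (0.0558). Per length ATP5G3 was the most abundant of them at 362 TPM, followed by ATP5G2 at 339 TPM and ATP5G1 at 188 TPM.

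**Figure D3:**
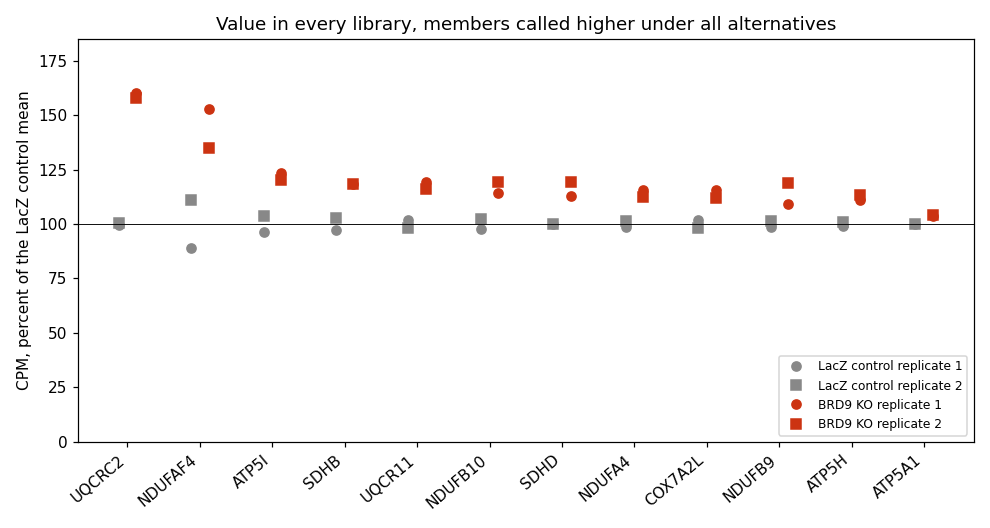
CPM of the 12 members called higher under every alternative, in each of the 4 libraries, as a percentage of the member's LacZ mean. For each of them both knockout points lie above both control points, with UQCRC2 farthest from the control level and ATP5A1 nearest to it.

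Partners outside the symbol patterns were read from lists of assembly factors, mitochondrially encoded subunits and regulators. Cytochrome c (CYCS), the carrier between complexes III and IV and a trigger of apoptosis when released, rose. It had 345 and 335 CPM in BRD9 KO and 246 and 250 CPM in LacZ, a log2 fold change of 0.46 ± 0.02 (adjusted p = 2.21e-12, edgeR). In the list of complex III assembly factors and cytochrome c, 3 of 9 tested rose and 1 fell with edgeR. Over all genes the shares were 20.5% and 18.1%. The median of the list was -0.01. With DESeq2 and limma 2 rose. The one that fell, LYRM7, a chaperone that guides the Rieske protein UQCRFS1 into complex III, had 19.95 and 17.9 CPM in BRD9 KO and 26.9 and 29.0 CPM in LacZ (log2 fold change -0.56 ± 0.08), a fall not called with limma on TPM (adjusted p = 0.12). UQCC1, needed for cytochrome b synthesis, rose by 0.24 ± 0.05.

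The 17 complex I assembly factors include the 7 NDUFAF genes described above. With edgeR 6 of the 17 rose and 2 fell, beside 20.5% and 18.1% of all genes. The counts were 2 and 1 with DESeq2 and 3 and 1 with limma, and the median log2 fold change was 0.05. COA1, at 52.6 and 56.5 CPM in BRD9 KO and 68.6 and 74.1 CPM in LacZ, had a log2 fold change of -0.39 ± 0.05, and C17orf89 of 0.40 ± 0.07. Of 23 complex IV assembly factors 5 rose and 0 fell with edgeR, with a median of 0.07, a count of rises near the background of 20.5%. With DESeq2 and with limma 2 rose and 0 fell, and 1 was lower at an unadjusted p under 0.05 with edgeR. They included the copper chaperones SCO1 (0.28 ± 0.05), COX19 (0.25 ± 0.08) and COX11 (0.10 ± 0.04), and the calls of the latter pair were lost with DESeq2, limma and several single libraries left out (edgeR adjusted p from 0.074 to 0.179). Of 4 complex II assembly factors 0 rose with edgeR, at an adjusted or unadjusted p, or with DESeq2 or limma. C6orf57 fell (-0.38 ± 0.09), and the median of the list was -0.03. In the list of complex V factors and subunits that the rule leaves out, 1 of 9 rose (USMG5, 0.14 ± 0.05, not called without BRD9 KO replicate 2 or LacZ replicate 2) and 1 fell (ATP5O, -0.12 ± 0.03), with a median of 0.06. Both calls were lost with DESeq2, and that of USMG5 with limma. For this list and that of the complex II factors too, the edgeR background was 20.5% higher and 18.1% lower.

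The 13 mitochondrially encoded subunits moved both ways: 5 rose, 6 fell and their median log2 fold change was -0.03. Over all genes tested 20.5% rose and 18.1% fell. Subunits of complex I lay on both sides. MT-ND2 had 4898 and 4912 CPM in BRD9 KO and 4291 and 4339 CPM in LacZ, a log2 fold change of 0.18 ± 0.01. MT-ND4 had 5805 and 5799 CPM against 6746 and 6827 CPM, a log2 fold change of -0.23 ± 0.01 (adjusted p = 4.66e-16, edgeR). These transcripts are cut from long shared precursors, and how RNA selection treats them is not given in the sources used here.

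Regulators of these genes and of mitochondrial DNA expression had 10 of 22 tested members higher and 2 lower with edgeR, beside the background of 20.5% and 18.1%, and a median log2 fold change of 0.13. With DESeq2 the counts were 6 and 1 (13.5% and 10.5% of all genes), and with limma 4 and 0 (8.77% and 7.21%). With limma 3 were lower at an unadjusted p under 0.05. PPARGC1B, a coactivator of mitochondrial biogenesis, had 29.1 and 30.7 CPM in BRD9 KO and 17.2 and 20.2 CPM in LacZ, a log2 fold change of 0.67 ± 0.08 (adjusted p = 1.44e-06, edgeR). Its relative PPRC1 had 91.3 and 92.0 CPM against 70.5 and 72.2 CPM, a rise of 0.36 ± 0.04. The mitochondrial transcription factor TFB2M (0.48 ± 0.07), the termination factor MTERF (0.52 ± 0.10) and the DNA helicase C10orf2 (0.42 ± 0.06) rose as well. TFB1M, a mitochondrial rRNA methyltransferase, fell (-0.25 ± 0.09). Of the factors whose cores were searched in the promoters, NRF1 had 15.9 and 13.2 CPM in BRD9 KO and 18.2 and 16.1 CPM in LacZ, both knockout libraries below both controls (log2 fold change -0.23 ± 0.10), which did not pass the test (adjusted p = 0.0841, edgeR). GABPA, the DNA-binding subunit of the ETS factor GABP, had 53.7 and 54.2 CPM in BRD9 KO and 48.8 and 48.5 CPM in LacZ, a rise of 0.15 ± 0.05. YY1 rose by 0.09 ± 0.03 and SP1 fell, with a log2 fold change of -0.17 ± 0.03. The calls of PPARGC1B and C10orf2 did not hold with limma on TPM (adjusted p = 0.0672 and 0.0689), nor did the falls of SP1 and TFB1M, and the call of TFB1M was also lost with DESeq2.

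**Figure D4:**
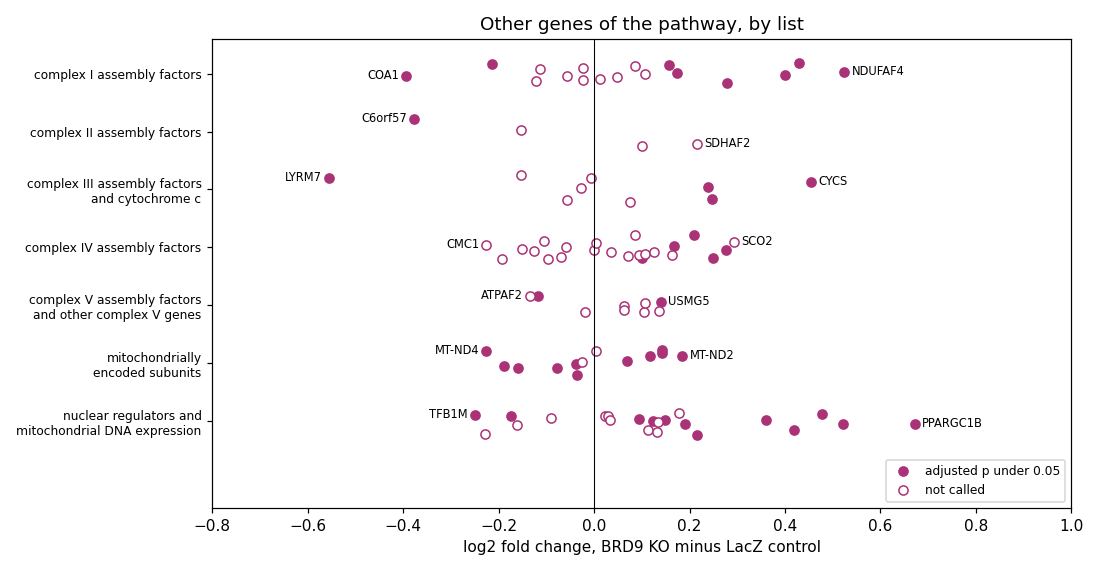
Log2 fold change (BRD9 KO minus LacZ) of each tested gene in the 7 partner lists, with filled points for genes past an adjusted p under 0.05. The mitochondrially encoded subunits lie within -0.23 and 0.18, while the regulators reach 0.67 and the complex III list spans -0.56 to 0.46.

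The reads behind these values were mostly assigned to a single gene. The median posterior standard deviation of a tested member's count was 0.0472% of the count, and 4 members exceeded 1%. The pseudogene rows matching the patterns took between 0.0749% and 0.0976% as many counts as the members. Exons of 32 tested members overlap those of another gene, for 25 of them on the opposite strand. The kit does not mark strand, so that reads in such overlaps cannot be assigned by strand. NDUFAF3 with DALRD3, ATP5I with MYL5, ATP5H with KCTD2, and ATP5J with GABPA are examples among the called members.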

How the data were processed

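RNA-seq libraries of G401 cells, 2 labeled BRD9 KO and 2 labeled LacZ, were analyzed at the level of genes. Groups and replicate numbers came from the labels. The methods of the study call the replicates biological. The labels do not name separate cultures, so that p-values reflect library-to-library spread that may be technical. Labels and methods name different RNA extraction kits.

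Alignment to hg19 (STAR) and quantification of genes (RSEM) were done by the authors, with versions not given in the sources. The deposited expected counts (estimated counts) split a read that fits several genes between them and carry no scaling between libraries. The authors' TPM values, which divide by effective length, served for levels between genes and for 1 alternative. RSEM's posterior standard deviation of a count, also deposited, was read as a percentage of the count, as a measure of how uncertain that split is.

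Counts were rounded and tested with the quasi-likelihood test of edgeR 4.0.16 (R 4.3.3), two-sided, with TMM scaling, filterByExpr on the 2 groups, robust dispersions and Benjamini-Hochberg adjustment over the 15288 genes kept. A gene was called at an adjusted p under 0.05. CPM are TMM-scaled, and SE follows from the F statistic. Replicates differed by more than sampling noise (chi-square per degree of freedom of 1.59 for BRD9 KO and 1.62 for LacZ) and were kept apart. The procedure was tested on simulated counts, in which more than the nominal share of its calls were false. Floors of 3 counts cover counting error only.

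Of 216 rows matching the symbol patterns, 118 pseudogene rows were left out. Where a symbol had several models, that with the most counts was used. Gene coordinates follow GENCODE release 44 on GRCh37, which has the sequence of hg19, and promoter windows follow RefSeq on GRCh38.p14, and the builds were not mixed. The members, lists, promoter cores and tests were chosen with earlier results of these data known. Named genes were BRD9, up to 3 rises and 3 falls per complex among called members of at least 5 CPM, the most abundant member of each complex, isoform pairs and up to 4 genes per list by smallest p. Other genes given beside a count, among them NDUFS1, NDUFB9, UQCRC1, MTERF, TFB1M, GABPA, YY1 and SP1, were picked with their values in view. The alternatives comprised DESeq2 1.42.0, its size factors (RLE), no filter, at least 1 CPM in all 4 libraries, limma 3.58.1 on log2(TPM + 1), a replicate block, each library left out, removal of mitochondrially encoded genes, pseudogene counts added to their parent and an adjusted p under 0.01. Summing gene models of a symbol and adding SDHA pseudogenes to SDHA were chosen after seeing the data. Columns of effective length and FPKM were not used.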

Additional observations from a re-analysis of the deposited data

How the results depend on the processing

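Against 28 members higher and 4 lower, DESeq2 called 15 and 1, limma on log2(TPM + 1) 18 and 0, and an adjusted p under 0.01 left 18 and 2. Over all genes DESeq2 called 1859 higher (13.5%) and 1444 lower (10.5%) and limma 1341 (8.77%) and 1103 (7.21%), beside 3127 (20.5%) and 2774 (18.1%) with edgeR. At an unadjusted p under 0.05, limma had 2 members lower. With each library left out the count ranged from 15 to 25 for rises and from 2 to 4 for falls: it was 15 and 2 without LacZ replicate 2, and 2 falls remained in number without BRD9 KO replicate 2 or without LacZ replicate 1. A group left with 1 library borrows the spread of the other. The median log2 fold change of the members, 0.05, was 0.0718 with no filter, 0.0459 with at least 1 CPM in all 4 libraries, 0.0615 with limma and from 0.0465 to 0.0622 with each library left out. It was positive in each. The replicate block gave 29 and 4. Same-numbered libraries deviated with a correlation of -0.05, so that the numbers were not taken as pairs. RLE size factors, removal of mitochondrial genes, added pseudogenes, summed gene models and added SDHA pseudogenes left the counts at 28 and 4.

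None of the 32 called members turned direction in any alternative. Among the uncalled members named by rule, 5 did. COX7C (-0.01) came to 0.00977 with no filter, 0.000315 with limma and from -0.014 to 0.000757 with a library left out. COX4I1 (-0.01) came to 0.00376, 0.000735 and from -0.045 to 0.0251 in the same settings. COX7A2 was -0.0118 with limma. With a library left out COX6A1 ran from -0.0267 to 0.164, where it passed the test without LacZ replicate 1, and COX6B2 from -0.128 to 0.109. The causes were not tested. With 2 libraries per group, differences of the size seen in most members lie near the limit of what passes the test.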

Other observations

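UQCRC2 was the member that changed most, and its neighbors on chromosome 16 were read after that value was seen. Within 500 kb of either end of the gene lie 12 other tested genes that average 5 CPM or more. Of these 10 had a log2 fold change above 0, 7 rose and 0 fell, and their median was 0.14, beside the background of 20.5% higher and 18.1% lower over all genes tested. DESeq2 called 3 higher and limma 1, and 0 were lower with either tool or at an unadjusted p under 0.05. Over all genes DESeq2 called 13.5% higher and 10.5% lower, and limma 8.77% and 7.21%. C16orf52, the next tested gene downstream, had 64.2 CPM in BRD9 KO and 52.3 CPM in LacZ (means of 2 libraries), a log2 fold change of 0.30 with an edgeR adjusted p of 7.21e-05. METTL9, a histidine methyltransferase upstream, had 162 CPM and 148 CPM, a log2 fold change of 0.13. EEF2K, the kinase that inhibits translation elongation factor 2, and the RNA polymerase III subunit POLR3E rose by 0.15 and 0.14. CDR2 did not pass the test (0.09). Several of the neighbors belong to repeated families, such as NPIPB4 and SMG1P1, neither of them called, whose counts are shared with near-identical copies. Uncertain counts also touch the 7 rises. RP11-645C24.2 (log2 fold change 0.62), CTD-2547E10.2 (0.46) and RRN3P3 (0.32) had posterior standard deviations averaging 16.6%, 13.3% and 3.24% of the count. For C16orf52, METTL9, EEF2K and POLR3E this was at most 0.228%.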
